A study of Mus musculus with 8 samples.

Results

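Immediate early genes and the dual-specificity phosphatases that are induced with them were followed as 40 genes, out of 19938 measured, in mouse T helper cells with and without Tet2. The 40 genes were taken by name: 7 subunits of the AP-1 transcription factor, 2 small Maf factors, 3 EGR factors, 3 NR4A nuclear receptors, 6 other transcription factors, 6 dual-specificity phosphatases, 5 NF-kB genes, 5 IER, mRNA decay and growth control genes, and 3 signalling and surface proteins. Each had a single probe set on the array. The rule used no measured value, but the genes were chosen with earlier results of these data known. The comparison was of 4 combinations of subset and genotype, with 2 arrays in each, called biological replicates in the titles: Th1 and Th17 cells of Tet2(f/f) mice, labelled wild-type, and Th1 and Th17 cells of CD2(Cre)Tet2(f/f) mice, labelled Tet2-deficient. Every group therefore carried the floxed Tet2 allele, and the wild-type groups lacked the Cre, which the CD2 promoter drives in lymphocytes. The age of the mice, the culture conditions and the state of stimulation at harvest were not given in the sources used here.

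Immediate early genes are switched on within minutes of a signal, without new protein synthesis, because the factors that start them are already in the cell. In T cells the antigen receptor reaches them through the ERK, JNK and p38 kinases, through calcium and NFAT, and through NF-kB. Most encode transcription factors, while the dual-specificity phosphatases remove phosphate from the MAP kinases and so form a negative feedback. Their mRNAs are mostly short-lived, so their level follows recent signalling.

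Levels are log2 signals, so a difference of 1 is a 2-fold change, and each ± gives the standard error of a difference. Array values are given for the wild-type arrays first and then for the Tet2-deficient arrays, replicate 1 before replicate 2. The T cell markers lay between 8.66 and 12.2 on all arrays. The mean of the 5 measured Th17 markers was 6.07 to 6.32 on the Th1 arrays and 9.03 to 9.43 on the Th17 arrays. That of the 6 Th1 markers was 9.66 to 10.04 and 8.29 to 8.41, so both list means matched the subset labels. Of the Th1 markers, Ifng (-5.02), Tbx21 (-2.96) and Il12rb2 (-1.47) were lower in Th17 cells. Il18r1 was higher (0.57, adjusted p = 0.00592 by limma), and Stat4 (0.08, 0.596) and Cxcr3 (-0.18, 0.22) did not pass. Markers of CD8 T cells (6.09 to 6.60), B cells (3.77 to 6.75) and dendritic cells (5.34 to 6.13) lay near or below the median of the gene means, 6.56. Among natural killer and myeloid markers, Klrd1 (5.70 to 5.97 on the Th1 arrays, 6.30 to 8.07 on the Th17 arrays) and Ly6g (8.35 to 8.72 and 9.03 to 10.4) were higher in Th17 cells, while Eomes (8.18 to 8.26 and 6.66 to 7.03), S100a8 and Adgre1 were lower. Over both lists 1 of 5 natural killer and 1 of 7 myeloid markers were above 0. Tet2 itself read 8.14 and 8.02 against 8.12 and 7.98 (Tet2-deficient) in Th1 cells, where its probe set did not separate the genotypes. In Th17 cells it read 8.51 and 8.49 against 8.34 and 8.39, without overlap, but the difference was small (-0.14, adjusted p = 0.99996 by limma). Which exons that probe set covers was not determined here, so it checks no label. Xist, the RNA of the inactive X chromosome of females, lay at 4.80 to 5.07 on the Th1 arrays, but at 5.15 and 10.1 on the wild-type and 8.60 and 11.3 on the Tet2-deficient Th17 arrays. The Y-linked Eif2s3y lay at 8.82 to 9.004 on the Th1 arrays, at 9.65 and 8.46 on the wild-type Th17 arrays and at 9.36 and 4.33 on the Tet2-deficient Th17 arrays. The Th17 replicates thus differed in the sex of their RNA, and wild-type Th17 replicate 2 and Tet2-deficient Th17 replicate 1 had both transcripts.

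The subsets differed in 24 of the 40 genes over both genotypes. Of these, 10 were higher in Th17 cells, led by Gem, Cd69 and Dusp10, and 14 were lower, led by Nr4a3, Nr4a2 and Klf6. The largest differences were about 2-fold: Nr4a3 was 2.13-fold lower, Gem 2.07-fold higher and Cd69 2.03-fold higher in Th17 cells. The same test (limma, Benjamini-Hochberg adjusted p under 0.05) called 22.2% of all genes, 12.4% higher and 9.79% lower, and 29.8% of the genes at or above the median level, where 39 of the 40 members lie. The median difference was -0.14 over the members and -0.04 over all genes. Quantile normalization applied again moved the split from 10 higher and 14 lower to 8 and 18, with 16.4% of all genes called. Xist was raised only on Th17 arrays, so a covariate for it partly overlaps with the subset. A call lost with it can therefore not be assigned to the sex of the RNA. With the covariate, 13 of the 24 remained called, against 10.3% of all genes. The other 11 kept their sign but missed the threshold: Fos (0.34), Jun (-0.39), Junb (-0.46), Egr2 (-0.33), Csrnp1 (-0.43), Dusp1 (-0.30), Dusp4 (-0.42), Dusp6 (-0.46), Nfkbid (0.41), Zfp36 (0.33) and Rgs1 (-0.27), with adjusted p from 0.0506 to 0.306. Without replicate 2 of both Th17 groups, the arrays richer in Xist, 18 remained, against 10.6% of all genes, and Fos (0.33), Egr2 (-0.35), Dusp1 (-0.34), Nfkbid (0.35), Zfp36 (0.30) and Rgs1 (-0.33) did not. Bulk RNA cannot tell fewer cells with a transcript from less of it per cell.

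**Figure D1:**
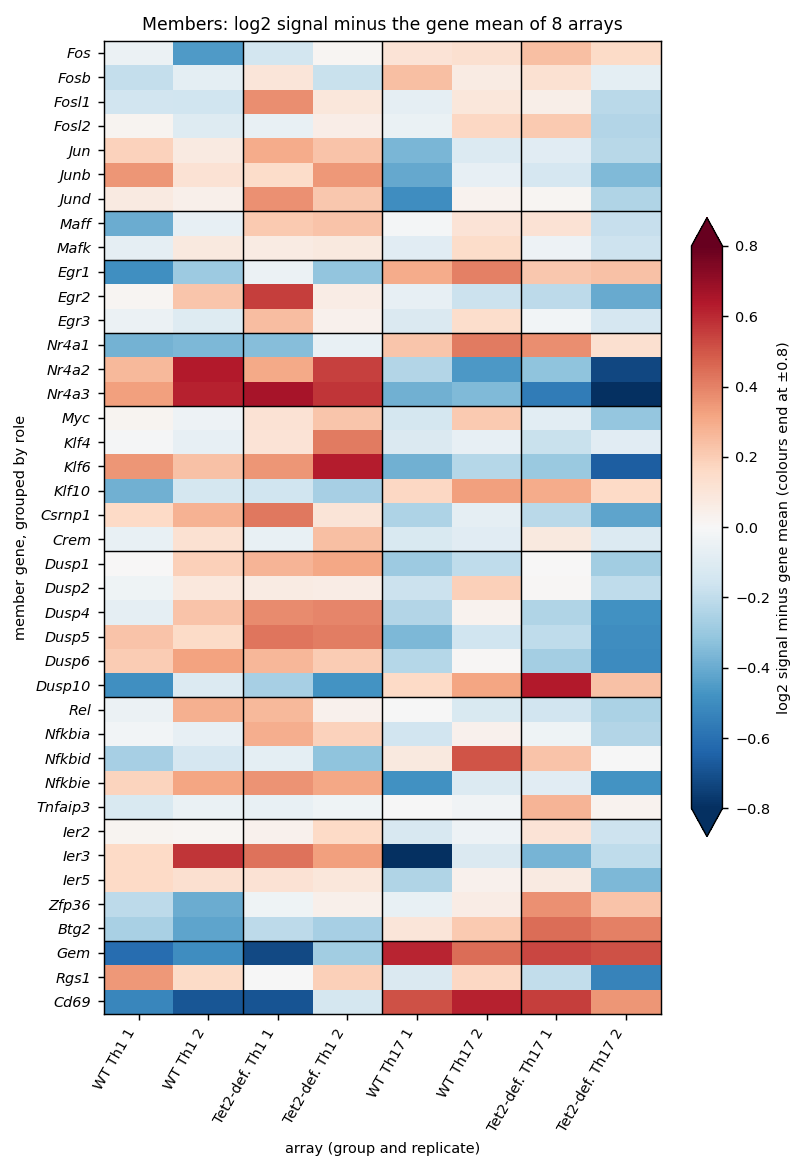
Log2 signal of each of the 40 genes on the 8 arrays, shown as the deviation from that gene's mean over all arrays, with genes ordered by role and arrays by group. Nr4a2, Nr4a3 and Klf6 are above their mean on the Th1 arrays and below it on the Th17 arrays, and Gem and Cd69 show the reverse.

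The NR4A genes encode orphan nuclear receptors that antigen receptor signals induce, and they did not share a direction. Nr4a3 (Nor1, probe set 10504838) read 9.90, 10.19, 10.23 and 10.14 on the Th1 arrays and 9.19, 9.22, 9.01 and 8.69 on the Th17 arrays. All Th17 arrays lay below all Th1 arrays, with a mean difference of -1.09 ± 0.10 (adjusted p = 1.34e-05). Nr4a2 (Nurr1, probe set 10482772) read 9.26, 9.64, 9.31 and 9.55 in Th1 cells and 8.77, 8.54, 8.68 and 8.27 in Th17 cells. It was likewise lower on every Th17 array, 1.83-fold (-0.87 ± 0.12, adjusted p = 0.000315). Nr4a1 (Nur77, probe set 10427035), often used as a reporter of antigen receptor signalling, read 10.30, 10.32, 10.34 and 10.62 in Th1 cells and 10.90, 11.09, 11.05 and 10.80 in Th17 cells. Here every Th17 array lay above every Th1 array, and the level was 1.48-fold higher (0.57 ± 0.10, adjusted p = 0.0018).

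Promoters were taken for called members with a sequence available, the 3 with the largest difference in each direction. These were Dusp10, Btg2 and Nr4a1 (higher in Th17 cells) and Nr4a3, Nr4a2 and Klf6 (lower). The 3 NR4A promoters are printed here, as the genes moved in different directions and their windows share a motif. The sequences are those of RefSeq, the 250 bases before the first listed start, read along the gene's strand in build GRCm38.p6. Capitals mark TGACG or its reverse complement CGTCA, the core of the cyclic AMP response element (CRE) that CREB family factors bind.
Nr4a1, chr15:101266596-101266845, plus strand: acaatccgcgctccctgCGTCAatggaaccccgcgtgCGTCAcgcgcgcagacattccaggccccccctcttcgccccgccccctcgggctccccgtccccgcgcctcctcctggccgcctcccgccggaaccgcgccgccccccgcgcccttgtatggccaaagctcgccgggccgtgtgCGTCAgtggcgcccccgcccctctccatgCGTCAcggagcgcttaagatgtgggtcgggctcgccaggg
Nr4a2, chr2:57124004-57124253, minus strand: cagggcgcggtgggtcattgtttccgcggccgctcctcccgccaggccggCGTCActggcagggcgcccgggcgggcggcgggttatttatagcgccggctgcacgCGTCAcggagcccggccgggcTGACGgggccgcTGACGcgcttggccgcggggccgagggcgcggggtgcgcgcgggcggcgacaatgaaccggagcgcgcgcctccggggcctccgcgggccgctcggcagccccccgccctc
Nr4a3, chr4:48045055-48045304, plus strand: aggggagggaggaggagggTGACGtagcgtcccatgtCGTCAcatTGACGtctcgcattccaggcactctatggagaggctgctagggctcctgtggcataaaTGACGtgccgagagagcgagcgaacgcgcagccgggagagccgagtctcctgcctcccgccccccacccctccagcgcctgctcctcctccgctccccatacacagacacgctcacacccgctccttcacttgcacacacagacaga
Each of the 3 windows holds 4 CRE cores, which 41 of 27025 promoters, or 0.152%, reach or exceed. The motif was added after the sequences were seen and 4 is the count these windows hold, so this share is no test. A CRE core lay in 14 of the 29 member promoters available, 48.3%, against 17.9% of all promoters and 21.6% for genes of the array annotation. The GC content of the windows was 74.4% (Nr4a1), 80.0% (Nr4a2) and 63.6% (Nr4a3), against a median of 52% over all promoters. The genes with the shared motif count were thus both higher (Nr4a1) and lower (Nr4a2, Nr4a3) in Th17 cells. A match is a description of the letters, not a bound site.

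Among the EGR genes, zinc finger factors downstream of ERK and NFAT, Egr1 and Egr2 went opposite ways. Egr1 read 9.04, 9.25, 9.49 and 9.22 in Th1 cells and 9.83, 9.94, 9.75 and 9.77 in Th17 cells. It was higher on every Th17 array, 1.49-fold (0.58 ± 0.09, adjusted p = 0.00103). Egr2, which restrains T cell activation, read 9.61, 9.83, 10.15 and 9.66 in Th1 cells and 9.54, 9.43, 9.39 and 9.20 in Th17 cells. All Th17 arrays were lower, by 1.34-fold (-0.42 ± 0.11, adjusted p = 0.0195). The Egr2 call was lost without wild-type Th17 replicate 2 (-0.40, adjusted p = 0.069), Tet2-deficient Th17 replicate 2 (-0.38, 0.0791), wild-type Th1 replicate 2 (-0.37, 0.0544) or Tet2-deficient Th1 replicate 1 (-0.30, 0.0772). Egr3, its close relative, ranged from 8.02 to 8.40 with overlapping arrays (-0.07, adjusted p = 0.626).

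AP-1 is a dimer of Fos and Jun family proteins, and of its subunits Jun and Junb were lower and Fos higher in Th17 cells. Junb, a subunit with a known part in Th17 differentiation, read 8.78, 8.54, 8.57 and 8.77 in Th1 cells and 8.01, 8.35, 8.29 and 8.07 in Th17 cells. No Th17 array reached the lowest Th1 array, and the level was 1.396-fold lower (-0.48 ± 0.11, adjusted p = 0.00677). Jun read 8.61, 8.50, 8.72 and 8.65 in Th1 cells and 8.06, 8.32, 8.34 and 8.20 in Th17 cells. It was 1.31-fold lower, again without overlap (-0.39 ± 0.09, adjusted p = 0.00834). Jund did not pass (-0.35 ± 0.12, adjusted p = 0.0518). Of the Fos side, Fos read 6.67, 6.26, 6.57 and 6.73 in Th1 cells and 6.82, 6.85, 6.95 and 6.87 in Th17 cells. Every Th17 array lay above every Th1 array, by 1.24-fold (0.31 ± 0.10, adjusted p = 0.0355). The Fos call was lost in 6 of 8 fits that left out an array: wild-type Th17 replicate 1 (0.32, adjusted p = 0.0714) or 2 (0.31, 0.0927), Tet2-deficient Th17 replicate 1 (0.29, 0.115) or 2 (0.34, 0.0648), wild-type Th1 replicate 2 (0.21, 0.0989) and Tet2-deficient Th1 replicate 1 (0.27, 0.122). Fosb (0.18, adjusted p = 0.198), Fosl1 (-0.07, 0.626) and Fosl2 (0.05, 0.789) did not pass, nor did the small Maf factors Maff (0.01, 0.936) and Mafk (-0.08, 0.562), which lack an activation domain of their own.

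The Krüppel-like factors Klf6 and Klf10 also differed in opposite directions. Klf6 (probe set 10403352) read 10.13, 10.01, 10.13 and 10.41 in Th1 cells and 9.39, 9.55, 9.48 and 9.12 in Th17 cells. It was lower on every Th17 array, 1.72-fold (-0.79 ± 0.11, adjusted p = 0.000262). Klf10, known as a gene induced by TGF-beta, read 6.80, 7.04, 7.02 and 6.92 in Th1 cells and 7.34, 7.51, 7.48 and 7.34 in Th17 cells. All Th17 arrays were above all Th1 arrays, by 1.39-fold (0.47 ± 0.09, adjusted p = 0.00251). Csrnp1, a nuclear protein, read 9.08, 9.20, 9.35 and 9.03 in Th1 cells and 8.68, 8.86, 8.71 and 8.50 in Th17 cells. It was 1.39-fold lower without overlap (-0.48 ± 0.10, adjusted p = 0.0051). Klf4 (-0.22, adjusted p = 0.0816), Crem (-0.12, 0.372) and Myc (-0.16, 0.284) did not pass, and Myc, the growth regulator, lay between 11.05 and 11.58 on all arrays.

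**Figure D2:**
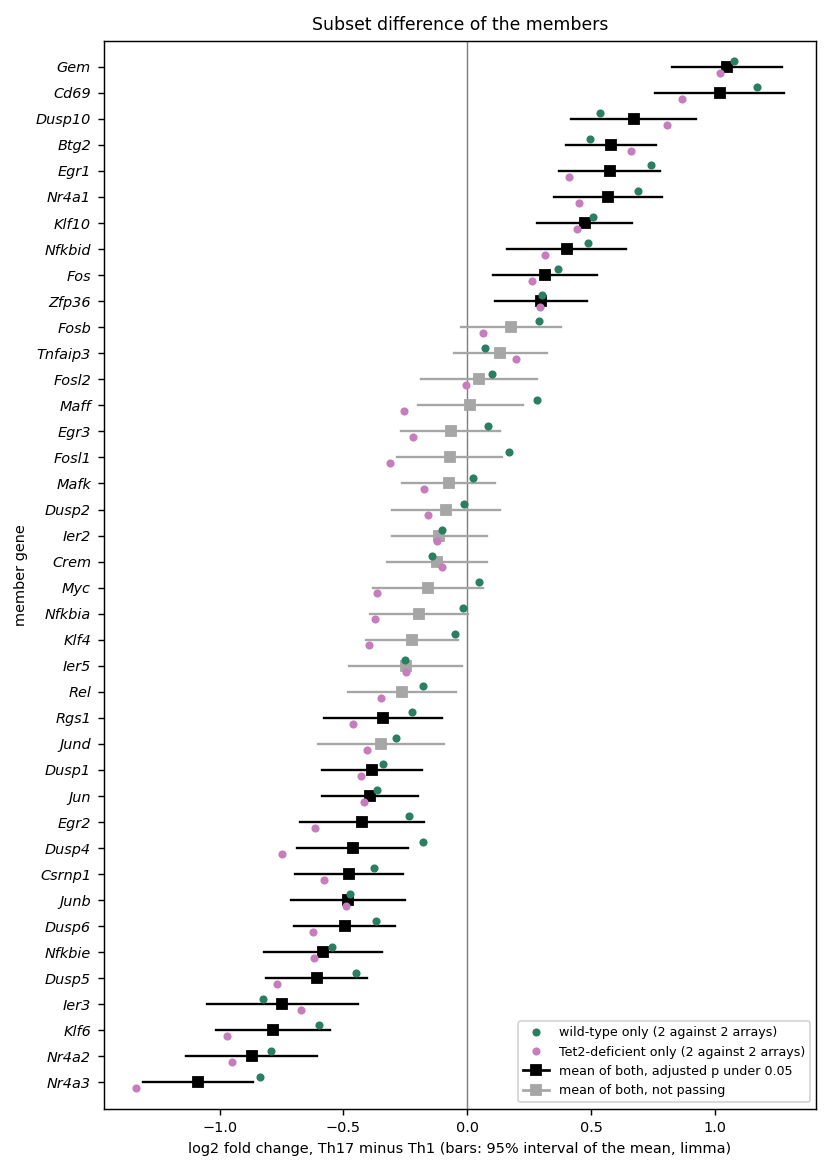
Log2 difference of Th17 from Th1 cells (horizontal axis) for each of the 40 genes: squares give the mean of both genotypes with its 95% interval, black where the adjusted p was under 0.05, and small circles the value within wild-type (green) and Tet2-deficient (pink) cells. The means run from -1.09 for Nr4a3 to 1.05 for Gem, and 24 genes passed the test.

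Of the 6 dual-specificity phosphatases, 4 were lower in Th17 cells, 1 was higher and Dusp2 did not pass (-0.09, adjusted p = 0.567). Dusp5 (probe set 10463945), a nuclear phosphatase selective for ERK, read 9.32, 9.25, 9.52 and 9.50 in Th1 cells and 8.73, 8.93, 8.89 and 8.60 in Th17 cells. It was lower on every Th17 array, 1.52-fold (-0.61 ± 0.09, adjusted p = 0.000699). Dusp6, the cytoplasmic phosphatase of ERK, read 9.34, 9.46, 9.40 and 9.34 in Th1 cells and 8.91, 9.15, 8.86 and 8.64 in Th17 cells. It too was lower without overlap, 1.41-fold (-0.50 ± 0.09, adjusted p = 0.00278). Dusp4, a nuclear phosphatase of ERK and JNK, read 8.73, 9.02, 9.18 and 9.19 in Th1 cells and 8.57, 8.83, 8.56 and 8.31 in Th17 cells. It was 1.38-fold lower (-0.46 ± 0.10, adjusted p = 0.00698), although wild-type Th17 replicate 2 lay above wild-type Th1 replicate 1. Dusp1 read 8.62, 8.80, 8.89 and 8.92 in Th1 cells and 8.33, 8.42, 8.62 and 8.34 in Th17 cells. Its subsets touched at the rounded value 8.62, and it was 1.31-fold lower (-0.38 ± 0.09, adjusted p = 0.011), a call lost without Tet2-deficient Th17 replicate 2 (-0.31, adjusted p = 0.0556). Dusp10 (probe set 10352448), which acts on p38 and JNK, read 7.71, 8.09, 7.94 and 7.72 in Th1 cells and 8.36, 8.52, 8.84 and 8.44 in Th17 cells. It was the phosphatase higher on every Th17 array, 1.59-fold (0.67 ± 0.12, adjusted p = 0.00151).

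The Dusp5 promoter is shown because it holds a pair of adjoining CArG boxes, the element bound by serum response factor that mediates growth factor and ERK induction of early genes. Capitals mark both CArG boxes and, after them, a CRE core.
Dusp5, chr19:53528895-53529144, plus strand: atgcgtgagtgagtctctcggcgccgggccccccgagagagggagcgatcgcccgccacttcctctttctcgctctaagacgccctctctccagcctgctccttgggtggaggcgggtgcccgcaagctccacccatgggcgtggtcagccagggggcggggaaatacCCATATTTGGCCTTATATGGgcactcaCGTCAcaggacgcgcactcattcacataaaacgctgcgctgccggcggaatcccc
A CArG box was found in 2 of the 29 member promoters available (Dusp5 and Zfp36), or 6.9%. It was found in 1.4% of all promoters and 1.25% of those of genes of the array annotation. The windows of Dusp10 and Klf6, taken by size of difference, held none of the motifs searched and are not printed.

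Within the NF-kB genes, the inhibitors differed in direction. Nfkbie, the inhibitor I-kappa-B-epsilon, read 7.74, 7.88, 7.93 and 7.87 in Th1 cells and 7.08, 7.45, 7.48 and 7.09 in Th17 cells. It was lower on every Th17 array (-0.58 ± 0.11, adjusted p = 0.00269). Nfkbid, an atypical nuclear I-kappa-B, read 8.09, 8.22, 8.27 and 8.03 in Th1 cells and 8.43, 8.86, 8.58 and 8.35 in Th17 cells. It was higher on every Th17 array, 1.32-fold (0.40 ± 0.11, adjusted p = 0.0215), but not called without wild-type Th17 replicate 2 (0.29, adjusted p = 0.093), Tet2-deficient Th17 replicate 1 (0.34, 0.0973), wild-type Th1 replicate 1 (0.37, 0.0621) or Tet2-deficient Th1 replicate 2 (0.34, 0.0814), or after quantile normalization again (0.27, 0.101). The subunit Rel (-0.26, adjusted p = 0.0814), Nfkbia (-0.20, 0.145) and Tnfaip3, the ubiquitin-editing enzyme A20 (0.13, 0.289), did not pass.

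The Nfkbie promoter is shown as the called NF-kB gene whose window holds both an AP-1 site (TGAGTCA) and an NF-kB site, in capitals in that order.
Nfkbie, chr17:45555450-45555699, plus strand: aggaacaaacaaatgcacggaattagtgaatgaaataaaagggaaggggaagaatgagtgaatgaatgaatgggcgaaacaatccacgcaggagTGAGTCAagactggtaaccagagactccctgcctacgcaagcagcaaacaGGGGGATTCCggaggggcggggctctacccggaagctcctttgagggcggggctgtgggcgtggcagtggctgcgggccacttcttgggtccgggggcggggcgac
An NF-kB site was found in 7.01% of all promoters and 7.87% of those of genes of the array annotation. Among the 29 member promoters it was found in 9, or 31%: those of Fos, Fosb, Fosl2, Egr2, Rel, Nfkbia, Nfkbie, Tnfaip3 and Ier3. Of these, Nfkbie, Egr2 and Ier3 were lower in Th17 cells, Fos was higher, and the others did not pass. An AP-1 site lay in 2 of the 29 member promoters, 6.9%, against 4.43% of all and 3.95% for genes of the array annotation. An EGR site lay in 1, or 3.45%, against 4.2% and 5.68%. Member promoters had a median GC content of 64% and 19 CpG, against 52% and 6 over all promoters. For genes of the array annotation the median GC content was 56.4%.

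Of the IER, mRNA decay and growth control genes, Btg2 and Zfp36 were higher and Ier3 was lower in Th17 cells. Btg2 (probe set 10357875), an antiproliferative protein, read 8.60, 8.44, 8.66 and 8.60 in Th1 cells and 8.97, 9.07, 9.31 and 9.27 in Th17 cells. It was higher on every Th17 array, 1.49-fold (0.58 ± 0.08, adjusted p = 0.000426). Ier3, a survival factor, read 7.79, 8.20, 8.07 and 7.96 in Th1 cells and 6.82, 7.52, 7.26 and 7.43 in Th17 cells. It was lower without overlap, 1.68-fold (-0.75 ± 0.14, adjusted p = 0.0026), and its wild-type Th17 replicates were 0.69 apart. Zfp36 (tristetraprolin), which destabilizes cytokine mRNAs, read 7.63, 7.44, 7.80 and 7.88 in Th1 cells and 7.77, 7.90, 8.20 and 8.07 in Th17 cells. The arrays overlapped, and the 1.23-fold higher level (0.30 ± 0.09, adjusted p = 0.0254) was not called without wild-type Th17 replicate 2 (0.27, adjusted p = 0.0923), Tet2-deficient Th17 replicate 1 (0.26, 0.107), wild-type Th1 replicate 2 (0.25, 0.0658) or Tet2-deficient Th1 replicate 1 (0.28, 0.0818), or after quantile normalization again (0.17, 0.189). Ier2 (-0.11, adjusted p = 0.386) and Ier5 (-0.25, 0.112) did not pass.

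The Btg2 promoter was taken by size of difference, as for the NR4A genes, and holds a complete CRE (TGACGTCA, in capitals). Of the 29 member promoters available, 2 hold it (Dusp1 and Btg2), or 6.9%. It lies in 1.62% of all promoters and 2.12% of those of genes of the array annotation.
Btg2, chr1:134079156-134079405, minus strand: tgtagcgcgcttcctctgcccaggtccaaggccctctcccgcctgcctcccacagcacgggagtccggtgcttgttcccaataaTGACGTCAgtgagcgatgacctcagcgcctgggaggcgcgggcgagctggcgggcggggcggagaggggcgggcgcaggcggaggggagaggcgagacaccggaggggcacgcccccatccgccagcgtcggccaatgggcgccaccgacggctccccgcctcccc
Btg2 was higher and Dusp1 lower in Th17 cells.

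The early genes with the largest higher levels in Th17 cells act at the membrane or in signalling. Gem (probe set 10503334), a small GTPase of the RGK family, read 7.39, 7.50, 7.27 and 7.72 in Th1 cells and 8.60, 8.44, 8.53 and 8.50 in Th17 cells. The subsets were well apart (1.05 ± 0.10, adjusted p = 1.99e-05). Cd69 (probe set 10548333), the early activation antigen that holds lymphocytes in tissue, read 10.89, 10.73, 10.73 and 11.28 in Th1 cells and 11.93, 12.04, 11.97 and 11.77 in Th17 cells. All Th17 arrays were higher (1.02 ± 0.12, adjusted p = 8.69e-05). Rgs1, which shortens signals from chemokine receptors, read 11.02, 10.83, 10.67 and 10.87 in Th1 cells and 10.56, 10.85, 10.48 and 10.15 in Th17 cells. The arrays overlapped, and the 1.27-fold lower level (-0.34 ± 0.11, adjusted p = 0.0423) was not called without wild-type Th17 replicate 1 (-0.27, adjusted p = 0.143), Tet2-deficient Th17 replicate 2 (-0.26, 0.177), wild-type Th1 replicate 1 (-0.29, 0.109), Tet2-deficient Th1 replicate 1 (-0.39, 0.0529) or 2 (-0.29, 0.127), or after centring of each array (-0.30, 0.0717).

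**Figure D3:**
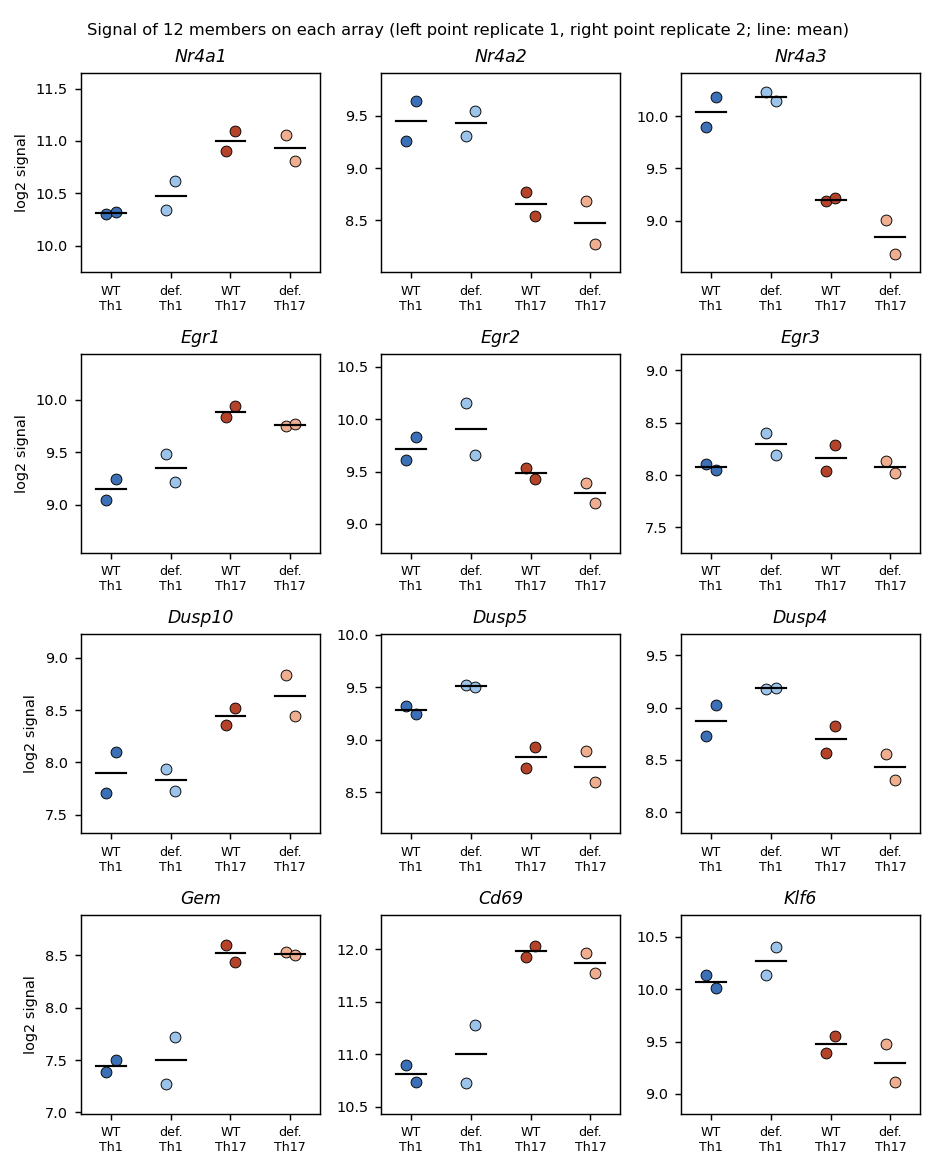
Log2 signal (vertical axis) of 12 members on each array, with replicate 1 left and replicate 2 right in each group and a line at the group mean; each panel spans the same range of log2 units. For Nr4a3, Gem and Cd69 the Th1 and Th17 arrays do not overlap, while Dusp4 and Egr3 overlap between the subsets.

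Within the genotypes fewer genes passed. These differences come from separate arrays, but their tests share the estimate of the spread and so are not independent. In wild-type cells 11 members were called, 6 higher and 5 lower in Th17 cells, against 8.4% of all genes (4.97% higher and 3.44% lower). In Tet2-deficient cells 14 were called, 5 higher and 9 lower, against 10.1% of all genes (6.32% higher and 3.79% lower). The Th17 difference of Nr4a3 was -0.84 (adjusted p = 0.00349) in wild-type and -1.34 (9.92e-05) in Tet2-deficient cells, that of Nr4a2 -0.79 (0.0138) and -0.95 (0.0038), and that of Klf6 -0.60 (0.0288) and -0.97 (0.00148). Gem was higher by 1.08 (adjusted p = 0.000634) and 1.02 (0.000809), and Cd69 by 1.17 (0.00107) and 0.87 (0.00639). Dusp4, Dusp5 and Dusp6 were called in Tet2-deficient cells (-0.75, -0.77 and -0.62) and not in wild-type cells, but the difference between the genotypes did not pass (adjusted p = 0.999 for each). The difference had the same sign in both genotypes for 34 of the 40 genes, 85%. The share was 74.5% of all genes and 78.0% of the genes at or above the median level. Of the members, 8, or 20%, were called in both, against 5.12% of all genes. The wild-type calls of Cd69, Gem and Nr4a3 and the Tet2-deficient calls of Btg2, Dusp5, Gem, Klf6 and Nr4a3 remained when any array was left out. The others were lost in at least 1 such fit. Leaving out an array of the comparison leaves 1 array in its group, and fewer of all genes were then called as well. In the fits without an array the member median ran from -0.13 to 0.02 in wild-type and from -0.40 to -0.17 in Tet2-deficient cells. Without replicate 2 of both Th17 groups the counts were 5 and 7, against 2.45% and 4.9% of all genes. Quantile normalization applied again gave 5 higher and 11 lower in wild-type cells, with 6.5% of all genes called. In Tet2-deficient cells it gave 4 higher and 16 lower, with 8.19% of all genes called. With a covariate for Xist, only the Tet2-deficient calls of Dusp10, Gem and Nr4a3 remained, with 3.64% of all genes called. Those of Btg2, Cd69, Klf6, Nr4a2, Dusp4, Dusp5 and Dusp6 were among the calls lost. In wild-type cells that fit lost the calls of Btg2, Klf6, Klf10 and Nfkbie, with 5.95% of all genes called.

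None of the 40 genes passed the test for loss of Tet2 in either subset. In Th1 cells the same test called 0.00502% of all genes, which is 1 gene, and in Th17 cells 0%. An unadjusted p under 0.05 was found for 5 members in Th1 cells, against 6.05% of all genes, and for 4 in Th17 cells, against 4.13%. In Th1 cells the largest member differences were Maff, Fosl1 and Dusp4. Maff read 5.61 and 5.94 with Tet2, 6.22 and 6.24 without (0.45 ± 0.14, adjusted p = 0.797). Fosl1 (Fra-1) read 7.91 and 7.90 against 8.43 and 8.15 (0.39 ± 0.14, adjusted p = 0.797), and Dusp4 8.73 and 9.02 against 9.18 and 9.19 (0.31 ± 0.14, adjusted p = 0.829). The arrays of the genotypes did not overlap for these 3 genes, but the values depended on single arrays. Leaving out wild-type Th1 replicate 1 or 2 gave 0.29 or 0.62 for Maff and 0.16 or 0.46 for Dusp4, and leaving out Tet2-deficient Th1 replicate 1 or 2 gave 0.25 or 0.53 for Fosl1. Of the members, 34 were above 0, against 54.1% of all genes, with a median of 0.10 against 0.01. The arrays did not overlap for 15 higher members, against 19.6% of all genes, and for 1 lower, against 13.7%. In the same arrays the mean of 4 proliferation genes ran from 8.91 to 9.13 in wild-type cells and from 8.37 to 8.71 in Tet2-deficient cells, and the part of this in the member differences was not tested.

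In Th17 cells the largest were Rgs1 (10.56 and 10.85 against 10.48 and 10.15), Nr4a3 (9.19 and 9.22 against 9.01 and 8.69) and Zfp36 (7.77 and 7.90 against 8.20 and 8.07). Their differences were -0.39 ± 0.15, -0.35 ± 0.14 and 0.30 ± 0.12, with adjusted p = 0.99996 for each by limma. Leaving out Tet2-deficient Th17 replicate 1 or 2 gave -0.56 or -0.22 for Rgs1 and -0.52 or -0.19 for Nr4a3, and Rgs1 was -0.25 when wild-type Th17 replicate 2 was left out. Without replicate 2 of both Th17 groups Rgs1 was -0.08, Nr4a3 -0.18 and Zfp36 0.43. The 95% interval for Nr4a3 ran from -0.67 to -0.04 before adjustment, while that of Gem, from -0.32 to 0.31, spans a change of either sign. In Th17 cells 12 of the 40 genes were above 0, against 54.4% of all genes, and 28 below, with a median of -0.08. The arrays did not overlap for 4 higher members (Fos, Tnfaip3, Zfp36 and Btg2), against 18.8% of all genes, and for 7 lower (Egr1, Egr2, Nr4a3, Dusp4, Dusp6, Rel and Rgs1), against 14.1%. That median was not stable: it was 0.02 when wild-type Th17 replicate 2 was left out, and 0.03 or -0.19 when replicate 2 or 1 of the Tet2-deficient Th17 arrays was. Without replicate 2 of both Th17 groups it was 0.13. The difference of the Tet2 effects, Th17 minus Th1, was above 0 for 6 of the 40 genes, against 50% of all genes, and below for 34, with a median of -0.17. No member passed (adjusted p = 0.999 for each by limma), and 4 had an unadjusted p under 0.05 (Dusp4, Maff, Nr4a3 and Fosl1), against 4.48% of all genes. Without an array this median ran from -0.31 to -0.07, and without replicate 2 of both Th17 groups it was -0.02.

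**Figure D4:**
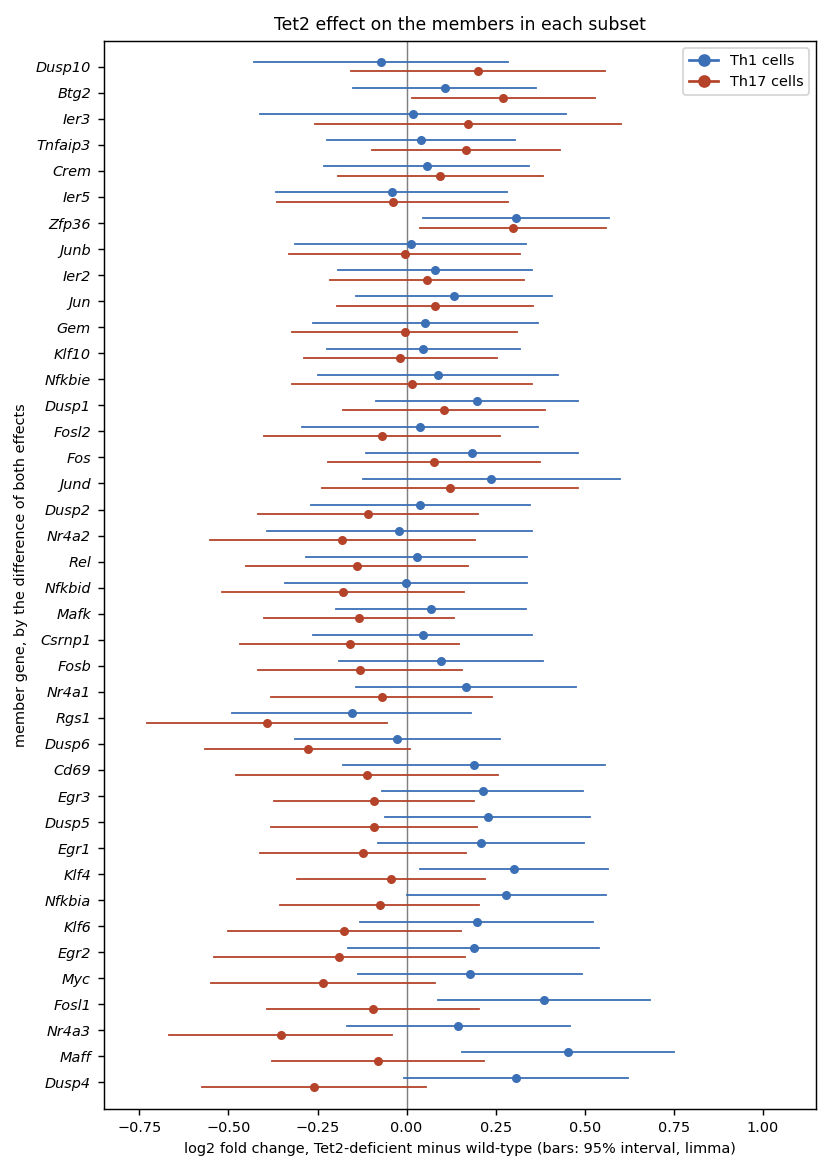
Log2 difference of Tet2-deficient from wild-type cells (horizontal axis, bars are unadjusted 95% intervals) for each of the 40 genes, in Th1 cells (blue) and Th17 cells (red), with genes ordered by the difference of both effects. The Th1 values lie above 0 for 34 genes and the Th17 values below 0 for 28, and Dusp4, at the foot, has the widest gap between them (0.31 and -0.26).

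In the Th17 groups the members mostly lay on one side between replicates. Replicate 2 was above replicate 1 for 34 of the 40 genes in wild-type Th17 cells (median 0.16), against 46.8% of all genes. In Tet2-deficient Th17 cells it was above for 3 of 40 (median -0.22), against 44.4% of all genes. In Th1 cells the counts were 22 of 40 in wild-type and 19 of 40 in Tet2-deficient cells. The array with more Xist was the higher one in wild-type Th17 cells (10.1 against 5.15) and the lower one in Tet2-deficient Th17 cells (11.3 against 8.60). The part of the sex of the RNA in these replicate differences was not tested.

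**Figure D5:**
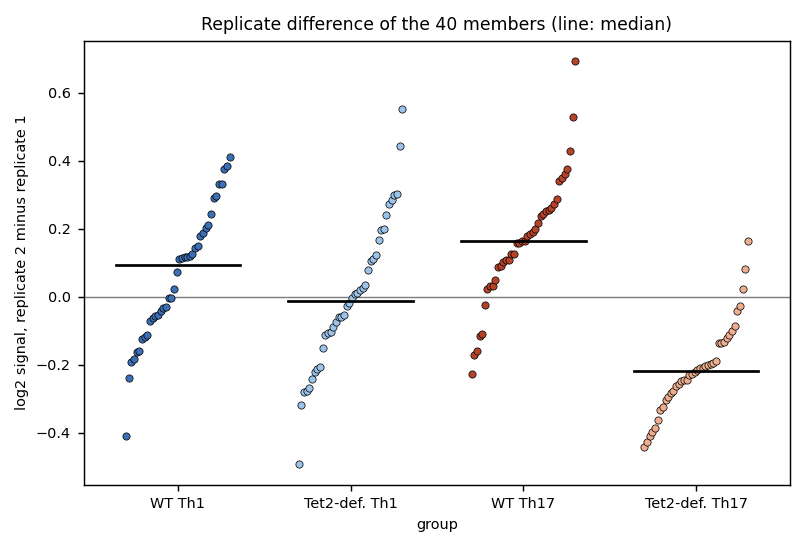
Replicate 2 minus replicate 1, in log2 units, for the 40 genes in each of the 4 groups, 1 point per gene in order of value, with a line at the median. Wild-type Th17 cells lie mostly above 0 (34 of 40) and Tet2-deficient Th17 cells mostly below (37 of 40).

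Other genes of the same pathways were read from lists chosen by function. Of 17 AP-1 and ATF partners, 3 were higher and 3 lower in Th17 cells (median 0.11), among them Maf, a factor of Th17 cells (12.1-fold higher, 3.60 ± 0.17, adjusted p = 3.38e-08), and Atf3 (3.65-fold lower, -1.87 ± 0.13, adjusted p = 1.25e-06). Of 20 further dual-specificity and MAP kinase phosphatases, 3 were higher and 4 lower (median 0.06), with Dusp7 at 0.46 and Dusp22 at -0.44. Of 13 Sprouty, Spred and Ras GTPase-activating genes, which dampen Ras and ERK, 4 were higher and 2 lower, including Rasa1 (1.04) and Rasa3 (0.90). Of 25 other NF-kB genes, 7 were higher and 4 lower, with Nfkb2 (-0.86) and Traf1 (-0.79) the largest. Of 49 other early response genes, 8 were higher and 18 lower (median -0.08), led by the chemokines Ccl3 (6.65-fold lower, -2.73 ± 0.11, adjusted p = 1.04e-08) and Ccl4 (4.89-fold lower, -2.29 ± 0.16, adjusted p = 1.29e-06). The all-gene share of 22.2% stands beside these counts. None of the genes in these lists was called for the effect of Tet2 in either subset.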

How the data were processed

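RNA was measured on 8 Affymetrix arrays. The deposited values are log2 signals of 35556 probe sets; per the submitters' processing notes, RMA, GCOS and Expression Console (Affymetrix) were used, in no stated order or version. The values were not scaled further. Probe sets with 1 symbol in the 2016 platform annotation were kept, the highest-mean set per gene, giving 19938 genes. Tests used limma 3.58.1 in R 4.3.3 (lmFit on 4 group means, eBayes with an intensity trend, two-sided, Benjamini-Hochberg over all genes, called under 0.05). All 8 arrays shared 1 estimate of the spread. With arrays, their number limits the precision, and p-values measure only the spread between them. The members and lists were chosen with earlier results of these data known. All members are described, called ones and the 3 largest Tet2 differences per subset by array. From each list the 2 called genes with the largest difference were named. Map2k6, the largest of its list in Tet2-deficient cells, was added. Of the member promoters, 29 of 40 were in the RefSeq table; Klf10, Cd69, Fosl1, Ier2, Rgs1, Crem, Egr3, Dusp4, Myc, Egr1 and Gem had no entry. The CRE core, and printing Dusp5 and Nfkbie, were added after the sequences were seen, as was the fit on the Th17 arrays with less Xist. Both strands were searched. Alternatives were a replicate block, a low-signal filter, all or averaged probe sets, repeated quantile normalization, array centring, eBayes without trend or robust, an Xist covariate, only the compared arrays, and leaving out each array.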

Additional observations from a re-analysis of the deposited data

Results flagged for a closer look

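The effect of Tet2 on Dusp4 stood apart because the arrays did not overlap in either subset and lay on opposite sides. Dusp4 was higher in both Tet2-deficient Th1 arrays (0.31) and lower in both Tet2-deficient Th17 arrays (-0.26). The difference of the effects was -0.57 ± 0.20 (limma, unadjusted p = 0.0164, adjusted p = 0.999 over all genes), so it did not pass. The Th1 value was 0.16 without wild-type Th1 replicate 1 and 0.46 without replicate 2. In Th17 cells the separation rests on 8.567 in wild-type replicate 1 against 8.559 in Tet2-deficient replicate 1. Dusp4 was the 1 member of 40 with this pattern, which 4.96% of all genes also showed.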

How the results depend on the processing

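In every alternative run, no member was called for an effect of Tet2 and none of 907 values of called members changed sign, while 146 lost their call. For the mean subset difference 19 members were called over all probe sets (11.2% of all probe sets called), against 24 in the main fit (22.2% of all genes). Over all probe sets Fos, Egr2, Nfkbid, Zfp36 and Rgs1 were not called. With a covariate for Xist the count was 13 (10.3% of all genes). Without each array in turn the median difference of the members ran from -0.21 to -0.09, against -0.14. In wild-type cells the count of 11 became 4 over all probe sets (1.68% of all probe sets called). It was 7 with the Xist covariate (5.95% of all genes) and 7 on the compared arrays alone (5.52%). In Tet2-deficient cells the count of 14 became 5, 3 and 7 over all probe sets, with the Xist covariate and on the Th17 arrays with less Xist (2.82%, 3.64% and 4.9% called in all), and 7 to 17 without each array. The cause was not tested. Replicate differences showed little correlation between groups (-0.186 to 0.0613). This cannot show whether arrays with the same replicate number were prepared together. With a replicate block the counts were 10 in wild-type cells (7.01% of all genes), 14 in Tet2-deficient cells (8.86%) and 23 for the mean (20.3%). The calls of Nfkbie in wild-type cells (-0.54), Klf10 in Tet2-deficient cells (0.44) and Rgs1 in the mean (-0.34) were then lost. The low-signal filter left no value for Maff, and the fit on only the compared arrays applies to comparisons of 2 groups. Having 2 arrays per group limits all of this.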

Other observations

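Of 25 measured kinases upstream in the ERK, JNK and p38 cascades, 11 were higher and 3 lower in Th17 cells over both genotypes (median 0.20). The largest were Map3k1 at 0.87 ± 0.10 (limma, adjusted p = 7.28e-05) and Map2k3 at -0.78 ± 0.11 (adjusted p = 0.000424). Map2k6 went the other way from Map2k3 (0.71, adjusted p = 0.00251 by limma). Its difference was 1.17 in Tet2-deficient cells (adjusted p = 0.0018 by limma) but 0.25 in wild-type cells, where it did not pass (0.449). Of 27 SRF, CREB and NFAT factors and coregulators, 10 were higher and 1 was lower (median 0.21), with Nfatc3 at 0.68 ± 0.09 (adjusted p = 0.000186) and Creb1 at 0.57 ± 0.09 (adjusted p = 0.000807). Of 16 heat shock and handling stress genes, 1 was higher (Dnajb4, 0.63 ± 0.08) and 1 lower (Hspa1a, -0.40 ± 0.12), 12.5% of the list, against 22.2% of all genes.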
